A study of Homo sapiens with 2 samples.

Results

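YAP-TEAD factors and their density-dependent targets were followed as 10 genes in TFK1 cells, an established human cholangiocarcinoma cell line. The 10 were the coactivators YAP1 and WWTR1, the DNA-binding factors TEAD1 and TEAD4, and the targets CTGF, CYR61, ANKRD1, AXL, AMOTL2 and LATS2. They were found by symbol, with CTGF and CYR61 as the older names of CCN2 and CCN1, and each had a single row among 56638 genes. The T-shMBD2 library came from cells in which MBD2, a reader of DNA methylation, was knocked down, and the T-shNC library from the negative control; neither received a further treatment. Knockdown in the study used lentiviral shRNA followed by drug selection (puromycin or G-418, with no statement of which for these cells), and the labels do not say which of the study's shRNAs against MBD2 was used. With 1 library per condition there are no replicates behind any difference, and no p-value is given.

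Hippo signaling couples cell density and adhesion to transcription. In dense epithelium, a kinase cascade ending in LATS1 and LATS2 phosphorylates YAP1 and its paralog WWTR1 (TAZ), which are then held in the cytoplasm or degraded; in sparse or spread cells both enter the nucleus and bind TEAD factors at target genes. YAP1 drives growth in biliary epithelium and in many cholangiocarcinomas, and RNA of its targets is often read as a sign of how crowded a culture was. These genes were compared here between the libraries with that question in view; culture density itself was not measured.

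TEAD proteins bind a short element whose core is read here as GGAATG, which on the opposite strand of the window reads CATTCC. RefSeq promoter windows of 300 bases (GRCh38.p14, 250 before and 50 after a start) were found for 7 of the 10 members, 10 windows in all. No window was found for CYR61, TEAD1 or TEAD4, so their promoters were not examined. Of the 10 windows, 6 held the element. Of 35116 such windows over all genes, 14% held it at least once, 1.37% at least 2 times and 0.128% at least 3 times. The windows of CTGF, with 3 matches, and ANKRD1, with 2, are shown because these targets lay at the opposite ends of the 10 differences; capitals mark the matches.
CTGF (chr6:131951323-131951622, minus strand): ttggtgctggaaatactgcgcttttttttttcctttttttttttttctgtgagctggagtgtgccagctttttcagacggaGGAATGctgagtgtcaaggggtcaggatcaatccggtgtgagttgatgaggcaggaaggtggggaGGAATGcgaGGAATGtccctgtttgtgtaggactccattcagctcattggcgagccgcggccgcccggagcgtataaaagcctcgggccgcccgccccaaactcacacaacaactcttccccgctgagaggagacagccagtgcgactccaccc
ANKRD1 (chr10:90921038-90921337, minus strand): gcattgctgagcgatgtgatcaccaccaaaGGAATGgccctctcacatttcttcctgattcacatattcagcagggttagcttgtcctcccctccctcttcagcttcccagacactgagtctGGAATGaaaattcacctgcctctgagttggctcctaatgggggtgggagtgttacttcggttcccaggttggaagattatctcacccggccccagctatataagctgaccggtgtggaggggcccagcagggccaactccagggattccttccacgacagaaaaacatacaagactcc
In CTGF the matches began 169, 104 and 95 bases before the start, and in ANKRD1 220 and 128 bases before it, all on the forward strand of the gene. A single match was found in YAP1 (162 bases before the start), in the second of the AMOTL2 windows (69 before, reverse strand), in the second of the AXL windows (212 before, reverse strand) and in LATS2, 10 bases after the start. No match was present in either WWTR1 window. The AP-1 element TGACTCA, which reads TGAGTCA on the opposite strand, occurred in 4.95% of all windows and the CArG box of SRF in 1.29%, and 0 of the members' windows held either. A match describes the letters of a window and not binding, which was not measured in these files.

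**Figure D1:**
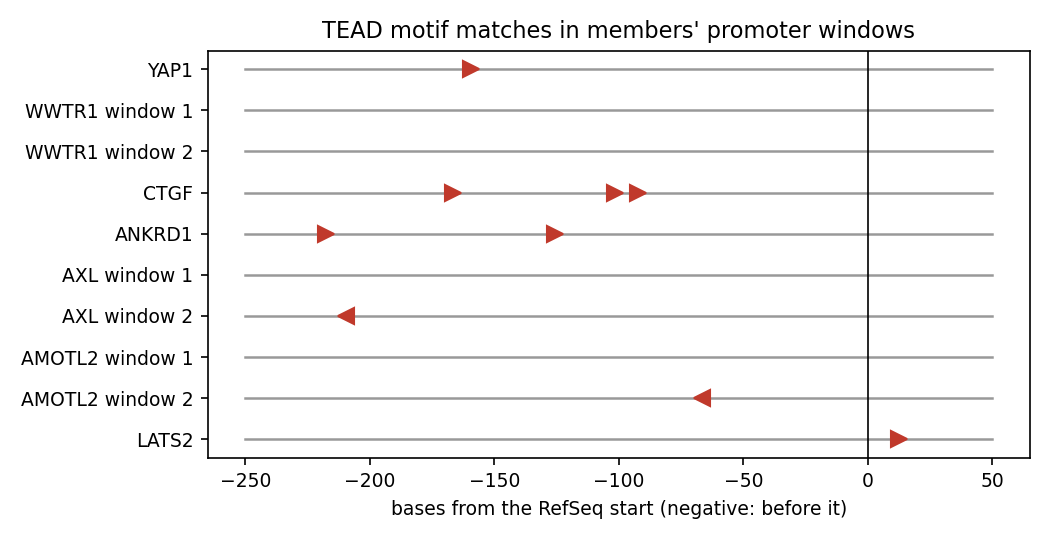
Positions of TEAD motif matches (triangles, pointing right for the forward and left for the reverse strand) in the members' RefSeq promoter windows, by distance in bases from the start. CTGF carries 3 matches and ANKRD1 2, against none in the WWTR1 windows.

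The counts summed to 14728814 in T-shMBD2 and 14467406 in T-shNC, and mitochondrial genes took 9.56% and 9.37% of them. MBD2 itself had 365 counts in T-shMBD2 and 1013 in T-shNC, a log2FC of -1.48 (interval -1.66 to -1.31), which follows the labels. Here log2FC is T-shMBD2 over T-shNC after TMM scaling and a prior of 0.5 counts, and intervals are 95% exact Clopper-Pearson intervals of a gene's split of reads, which cover counting error only. Of 9 biliary epithelium markers, all were detected, led by the keratins KRT8 (3006 and 3890 TPM), KRT7 (1160 and 1327 TPM) and KRT18 (526 and 686 TPM). Endothelial markers summed to 1 and 9 counts over 6 genes in T-shMBD2 and T-shNC, with PECAM1, VWF, KDR and TEK at 0 in both. Leukocyte markers summed to 181 and 131 counts over 6 genes, most of them from CD14 (152 and 126), with CD3E and CD52 at 0 in both; LAPTM5 had 29 and 3. Fibroblast markers summed to 330 and 145 counts over 8 genes. Of the 3 tested, 2 lay above 1, beside 5.48% of all genes tested. These were COL1A1 with 308 and 124 counts (log2FC 1.30, interval 0.998 to 1.62) and THY1 with 14 and 6 (1.15, interval -0.26 to 2.88). LUM had 5 and 6 counts, the other 5 fibroblast markers had at most 6 in any library, and FAP was at 0 in both; the part of such cells in the members' values was not tested. In bulk RNA, fewer cells that use a gene and less RNA of it per cell cannot be told apart.

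The T-shMBD2 library was lower than T-shNC for 9 of the 10 members and higher for CTGF. All 10 passed the filter of at least 10 counts summed over the libraries. Their median log2FC was -0.25, against -0.0082 over all 17545 genes tested. ANKRD1 was the only member below -1 and no member lay above 1, while 5.07% of all genes tested lay below -1 and 5.48% above 1. Of the 10 members, 8 had a counting interval wholly below 0, which held for 18.4% of all genes tested. CTGF had an interval wholly above 0, as did 19.7% of all genes tested, and the interval of TEAD4 held 0. By sign alone, 51.1% of all genes tested were lower. Well-counted genes, the 10917 that reached 100 counts in either library, give a closer background, since 9 of the members were among them: 8 of these 9 were lower against 49.4% of that class, 7 had an interval below 0 against 23.8%, 1 an interval above 0 against 25.4%, and 0 lay past either line against 2.62% (1.62% above 1 and 0.998% below -1).

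**Figure D2:**
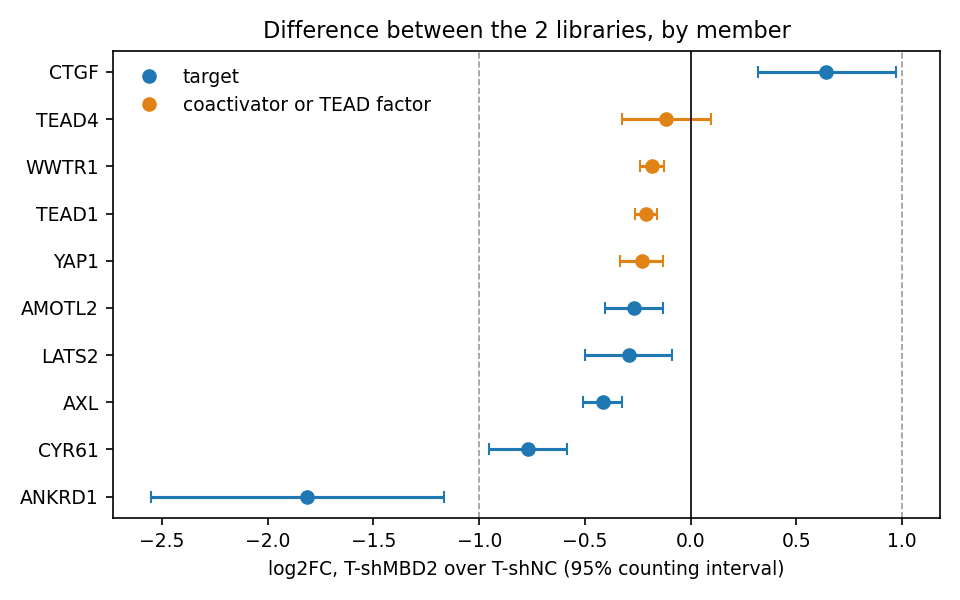
Log2FC of each member, T-shMBD2 over T-shNC, with its 95% counting interval; orange points are coactivators and TEAD factors, blue points are targets, and dashed lines mark -1 and 1. The 4 factors lie between -0.23 and -0.12, and the 6 targets spread from -1.81 (ANKRD1) to 0.64 (CTGF).

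WWTR1 and YAP1 encode the coactivators, which do not bind DNA themselves. WWTR1 had 4522 counts in T-shMBD2 and 5102 in T-shNC, or 157 and 182 TPM, and its log2FC was -0.18 (interval -0.24 to -0.12). It had the highest level per length of the 10 genes in both libraries and stood at place 861 in T-shMBD2 and 689 in T-shNC among all genes by TPM. YAP1 had 1465 and 1708 counts, or 47.6 and 56.9 TPM, a log2FC of -0.23 (interval -0.33 to -0.13). The T-shMBD2 library was thus slightly the lower for both, at 88.1% of T-shNC for WWTR1 and 85.2% for YAP1. In TPM, YAP1 stood at 0.303 of WWTR1 in T-shMBD2 and 0.313 in T-shNC, so WWTR1 was the more abundant coactivator RNA in either library. The difference of their log2FC values held 0 in its interval, as did all 6 pairs among the 4 factors.

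TEAD1 and TEAD4 encode sequence-specific partners of YAP1 and WWTR1. TEAD1 had 5839 counts in T-shMBD2 and 6718 in T-shNC, or 108 and 128 TPM, a log2FC of -0.21 (interval -0.26 to -0.16). TEAD4 had 366 and 394 counts, or 37.9 and 41.8 TPM, with a log2FC of -0.12 (interval -0.32 to 0.094). A difference in TEAD4 was therefore not detectable at this depth, while TEAD1, with far more reads, lay below 0 by more than its counting error. The paralogs outside the 10 genes were lower in level, with TEAD2 at 25.8 and 28.0 TPM (log2FC -0.091, interval -0.30 to 0.12) and TEAD3 at 6.80 and 7.76 TPM (log2FC -0.16, interval -0.54 to 0.21). Of the summed TPM of TEAD1 to TEAD4, TEAD1 made up 60.6% in T-shMBD2 and 62.2% in T-shNC, TEAD4 21.2% and 20.4%, TEAD2 14.4% and 13.6%, and TEAD3 3.80% and 3.78%. The order of the family was the same in both libraries. Summed, the family stood at 179 TPM in T-shMBD2 and 205 TPM in T-shNC.

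**Figure D3:**
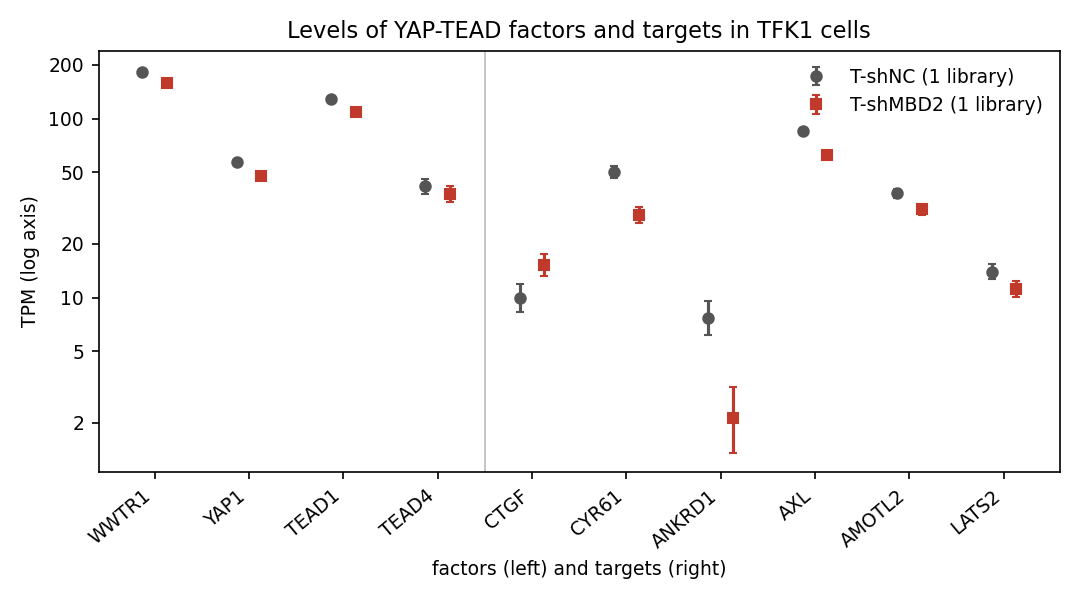
TPM of each member in T-shNC (grey circles) and T-shMBD2 (red squares), 1 library each, on a log axis with 95% Poisson counting intervals. WWTR1 is highest in both libraries and ANKRD1 lowest; the squares lie below the circles for every member except CTGF.

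CTGF and CYR61 encode secreted matricellular proteins and are the most widely used readouts of YAP-TEAD activity. They differed in opposite directions. CTGF had 204 counts in T-shMBD2 and 130 in T-shNC, or 15.3 and 9.97 TPM, and was at 156% of T-shNC (log2FC 0.64, interval 0.32 to 0.97). CYR61 had 381 and 645 counts, or 29.1 and 50.5 TPM, and was at 58.7% of T-shNC (log2FC -0.77, interval -0.95 to -0.58). The difference between their log2FC values was 1.41 (interval 1.03 to 1.79), a ratio within each library that no scaling between libraries can change. CYR61 was 1358 in rank from the lowest log2FC of 17545 genes, and CTGF 15802. In T-shNC the level of CYR61 was above that of CTGF by 50.5 to 9.97 TPM, and in T-shMBD2 by 29.1 to 15.3 TPM.

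ANKRD1, an ankyrin-repeat protein of nucleus and sarcomere that responds to stretch and to YAP, had the lowest log2FC of the 10. It had 24 counts in T-shMBD2 and 85 in T-shNC, or 2.12 and 7.71 TPM, and stood at 28.5% of T-shNC. Its log2FC was -1.81 (interval -2.55 to -1.17, the widest of the members), and its rank was 219 from the lowest of all genes tested. Its interval lay wholly below that of each of the other members, and in the comparison of log2FC values it was below CYR61 by 1.06 (interval 0.37 to 1.81). With so few reads ANKRD1 was the member outside the well-counted class.

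AXL encodes a receptor tyrosine kinase for GAS6. It had 1699 counts in T-shMBD2 and 2252 in T-shNC, or 62.7 and 85.3 TPM, a log2FC of -0.42 (interval -0.51 to -0.32). It was the target with the most reads and the highest level per length of the 6, and it stood at 75.0% of T-shNC. In the pairwise comparison AXL lay below each of the 4 factors by more than counting error.

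AMOTL2 and LATS2 are targets that feed back on the pathway: AMOTL2 is an angiomotin that binds YAP1 at junctions and actin, and LATS2 is a kinase that phosphorylates YAP1 and WWTR1. AMOTL2 had 804 counts in T-shMBD2 and 962 in T-shNC, or 31.1 and 38.2 TPM, a log2FC of -0.27 (interval -0.40 to -0.13). LATS2 had 352 and 429 counts, or 11.2 and 14.0 TPM, a log2FC of -0.29 (interval -0.50 to -0.088). These feedback targets stood at 83.1% and 81.6% of T-shNC, and their log2FC values did not differ from those of the 4 factors beyond counting error. LATS1, the paralog of LATS2 outside the 10 genes, had 685 and 710 counts (log2FC -0.061, interval -0.21 to 0.093).

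The targets were thus more spread than the factors. The 4 factors ranged from -0.23 to -0.12 with a median of -0.20, and the 6 targets from -1.81 to 0.64 with a median of -0.35. Of the 45 pairs of members, 28 differed in log2FC by more than counting error, and CTGF, CYR61 and ANKRD1 each differed from all 9 others. The summed TPM of the 6 targets was 151 in T-shMBD2 and 206 in T-shNC, and that of YAP1 and WWTR1 205 and 239. The order of levels ran from WWTR1 through TEAD1, AXL and YAP1 in both libraries, and ANKRD1 came last in both. In T-shNC the neighbors YAP1 and CYR61, TEAD4 and AMOTL2, and CTGF and ANKRD1 had overlapping counting intervals of TPM, and in T-shMBD2 AMOTL2 and CYR61 did. CYR61 stood above TEAD4 and AMOTL2 in T-shNC and below both in T-shMBD2, and CTGF was below LATS2 in T-shNC and above it in T-shMBD2.

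**Figure D4:**
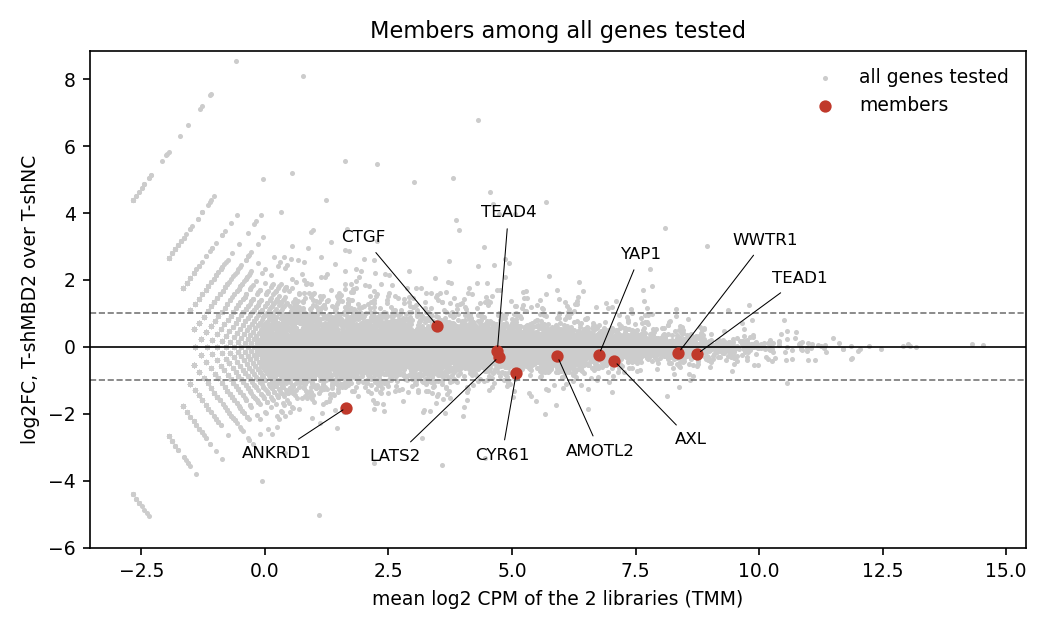
Log2FC, T-shMBD2 over T-shNC, against the mean log2 CPM of both libraries for the 17545 genes tested (grey) and the 10 members (red); dashed lines mark -1 and 1. ANKRD1 lies below -1 among genes with few reads, and the other 9 members lie between the lines.

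Genes that overlapped a member had few reads assigned to them, and reads falling on both genes were not examined. Of 13 genes that overlapped a member's span in the deposited table, WWTR1-AS1, antisense to WWTR1, had the most reads, with 26 counts in each library, and the other 12 had at most 5. Whether counting used strand is not given in the sources used here. In GENCODE 29 (GRCh38) CTGF spans 131948176 to 131951373 on chromosome 6, CYR61 85580761 to 85583962 on chromosome 1, ANKRD1 90912096 to 90921276 on chromosome 10, and YAP1 102110461 to 102233423 on chromosome 11, and all 10 members are protein-coding genes there. The positions in the deposited table differ from these for all 10, although the submitters' notes name GRCh38.p13, so they are not given here.

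Other targets of a published YAP-TEAD signature were lower more often than higher. All 16 outside the 10 members were tested, 11 were lower and 5 higher, and the median log2FC was -0.18. Of all genes tested 51.1% were lower, and of the well-counted class 49.4%. RBMS3, an RNA-binding protein, was the only gene past the fold, with 46 counts in T-shMBD2 and 116 in T-shNC (log2FC -1.33, interval -1.87 to -0.84). Of all genes tested, 5.07% lay below -1 and 10.6% past either line. The intervals of 8 lay wholly below 0 and those of 3 wholly above it, against 18.4% and 19.7% of all genes tested and 23.8% and 25.4% of the well-counted class. The 3 with the most reads were MYOF, a membrane-fusion protein, with 7856 and 9595 counts (log2FC -0.30), CRIM1, a transmembrane BMP antagonist, with 6132 and 9254 (log2FC -0.60), and IGFBP3, a binding protein of insulin-like growth factors, with 4404 and 8044 (log2FC -0.88). Each of these 3 was lower in T-shMBD2 by more than its counting error. F3 (tissue factor), named after its value was seen, was highest, with 60 and 37 counts and a log2FC of 0.68 (interval 0.074 to 1.32).

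The Hippo cascade and TEAD partner genes showed a smaller median difference. Of 22 kinases, scaffolds and TEAD partners, 21 were tested, 7 were higher and 14 lower, and the median was -0.084. Of all genes tested, 51.1% were lower. The core kinases STK3 and STK4 were at -0.093 and -0.060, their scaffold SAV1 at -0.093, and NF2, an upstream membrane scaffold, at -0.084, all with intervals that held 0. The intervals of 6 genes lay above 0 and those of 5 below it, against 19.7% and 18.4% of all genes tested and 25.4% and 23.8% of the well-counted class. Above 0 were, among others, WWC1 (KIBRA, an upstream scaffold, 3375 and 2531 counts, log2FC 0.41), MAP4K4 (a kinase that acts on LATS, 3106 and 2292 counts, 0.43) and VGLL4 (a TEAD cofactor that competes with YAP1, 473 and 352 counts, 0.42). Below 0 were FAT4, an atypical cadherin (209 and 345 counts, -0.73), TAOK3, a kinase upstream of STK3 and STK4 (654 and 789, -0.28), MOB1B, a cofactor of LATS kinases (690 and 798, -0.22), TAOK1 and AMOT. FAT1, also an atypical cadherin, had the most reads, with 10248 and 9841 counts and a log2FC of 0.050, followed by TAOK1 (4965 and 5441, -0.14) and MOB1A (4547 and 4628, -0.034). AMOT, the only gene past the fold, had 4 and 19 counts (log2FC -2.12, interval -4.27 to -0.67), and VGLL1 had 0 in both. Of all genes tested, 10.6% lay past either line. STK3, STK4, SAV1, NF2, WWC1, MAP4K4, VGLL4, FAT4, TAOK3, MOB1B, AMOT and VGLL1 were named after their values were seen.

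By the pathway column of the deposited table, 156 genes carried the Hippo annotation, 6 of the 10 members among them, while CYR61, ANKRD1, AMOTL2 and AXL did not. Of these, 136 were tested, with a median of -0.029, 8 above 1 and 4 below -1, beside 10.6% of all genes past either line. This list was added after the table was seen.

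Junction and polarity genes, which relay cell contact to the pathway, were mixed in sign. Of 13 tested, 8 were lower and 5 higher, with a median of -0.13. Of all genes tested 51.1% were lower, and of the well-counted class 49.4%. Past a log2FC of 1 or -1 lay 1 gene, beside 10.6% of all genes tested. The intervals of 7 lay below 0 and those of 3 above it. These compare with 18.4% and 19.7% of all genes tested and 23.8% and 25.4% of the well-counted class. LLGL2, INADL and MPP5, named with their values known, were at -0.48, -0.41 and -0.25. CTNNA1 (alpha-catenin) had 6080 and 6633 counts (log2FC -0.13), TJP1, a tight-junction scaffold, 5375 and 5443 (-0.027) and CTNNB1 (beta-catenin) 4031 and 3532 (0.18). Named after their values were seen, PARD3, a polarity protein, had 4276 and 2932 counts (0.54, interval 0.47 to 0.60), CDH1 (E-cadherin) had 2342 and 1762 counts (log2FC 0.40), LIMD1 and AJUBA, LIM proteins that restrain LATS kinases at junctions, were at -0.68 and -0.42, and CRB3 was the only gene past the fold, with 25 and 54 counts (-1.10, interval -1.87 to -0.41).

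SRF and actin genes, many of which respond to cell spreading and share targets with YAP1, were mixed in direction. Of 15 tested, 8 were higher and 7 lower, where 51.1% of all genes tested were lower, and the median was 0.19. The intervals of 7 lay above 0 and those of 5 below it, against 19.7% and 18.4% of all genes tested. In the well-counted class these shares were 25.4% and 23.8%. ACTG1, ACTB and FLNA had the most reads and were at -0.059, -0.028 and -0.081. Named after their values were seen, VCL (vinculin) had 5793 and 4039 counts (log2FC 0.51), FHL2 571 and 310 (0.87) and CNN2 1560 and 954 (0.70), and SRF itself 498 and 413 (0.26, interval 0.070 to 0.45). MKL1 and MKL2 of the same list, also named with values known, were lower. They were at -0.21 (interval -0.34 to -0.076) and -0.23 (interval -0.35 to -0.12). CNN1, also named after its value was seen and the only gene past the fold, had 17 counts against 1, with an interval of log2FC from 1.40 to 9.46. Of all genes tested, 10.6% lay past either line.

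AP-1 factors bind with TEADs at many YAP1-responsive enhancers. All 8 were tested, 5 were higher and 3 lower, where 51.1% of all genes tested were lower, and the median was 0.35. The intervals of 4 lay above 0 and those of 0 below it, against 19.7% and 18.4% of all genes tested. In the well-counted class these shares were 25.4% and 23.8%. FOSL2 had 4406 counts in T-shMBD2 and 2256 in T-shNC (log2FC 0.96, interval 0.88 to 1.03), FOSL1 354 and 144 (1.29, interval 1.01 to 1.58), JUND 660 and 667 (-0.024) and JUNB 554 and 537 (0.036). JUN, with 448 and 268 counts, was at 0.73 and FOS, with 143 and 89, at 0.67 (interval 0.28 to 1.07). FOSB, with 4 and 11, was at -1.36 with an interval from -3.58 to 0.29. JUN, FOS and FOSB were named after their values were seen. Among the AP-1 factors, FOSL1 was the only one above 1 and FOSB the only one below -1. Of all genes tested, 5.48% and 5.07% lay past these lines.

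Proliferation genes differed little. Of 12 tested, 0 lay past either line, and all 12 were in the well-counted class, where 2.62% of genes did, so this count lies near its background. The median was 0.036, and the genes ranged from -0.15 (MKI67) to 0.29 (CDKN1B, an inhibitor of cyclin-dependent kinases, named after its value was seen). TOP2A had 20039 and 19327 counts (log2FC 0.043), MKI67 12108 and 13336 and PCNA 6817 and 6577 (0.043). Biliary epithelium markers had a median of -0.34, with 6 lower and 3 higher of 9, where 51.1% of all genes tested were lower. The intervals of 6 lay below 0 and those of 3 above it, against 18.4% and 19.7% of all genes tested. KRT8 had a log2FC of -0.34, KRT18 of -0.36 and KRT7 of -0.17, so these epithelial genes lay within the range of the factors and targets above.

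NF-kB targets stood far from the members between the same libraries. All 8 listed genes lay above 1, beside 5.48% of all genes tested and 1.62% of the well-counted class. The list was chosen with earlier results of these data known, so this count describes the list and tests nothing. Its median log2FC was 4.29, unchanged when CCL20 and ICAM1 are set at the bound given by a floor of 3 counts. NFKBIA had 1870 and 723 counts, CXCL1 3364 and 166, IL8 3052 and 27, and BIRC3 2274 and 704. TNFAIP3 had 1571 and 81 counts, NFKB2 1302 and 429, CCL20 408 and 1, and ICAM1 187 and 0. The part of NF-kB or AP-1 activity in the values of CTGF and the other members was not tested, and neither was that of culture density.

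**Figure D5:**
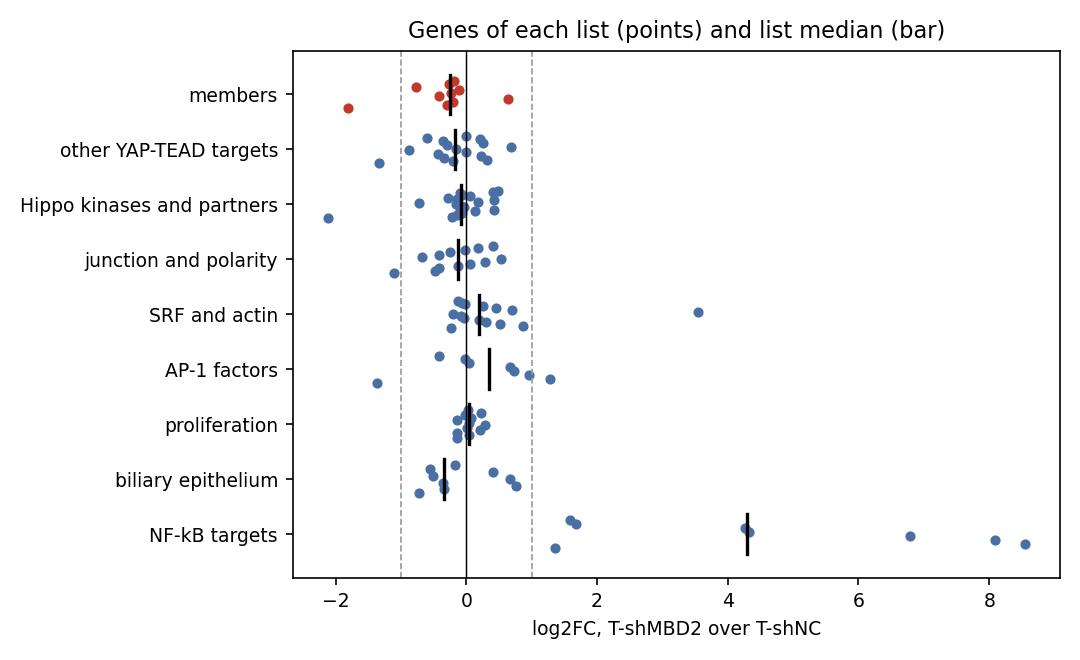
Log2FC of the tested genes of each list (points), T-shMBD2 over T-shNC, with the list median (black bar) and dashed lines at -1 and 1. The members and the other YAP-TEAD targets have medians of -0.25 and -0.18, SRF and actin genes 0.19, and NF-kB targets 4.29; ICAM1, CCL20 and CNN1, at 0, 1 and 1 counts in T-shNC, are plotted at fitted values that depend on the prior count.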

How the data were processed

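RNA of 2 TFK1 libraries, 1 per condition, was sequenced from total RNA with a VAHTS Universal V6 kit. The authors deposited whole-number read counts per gene, not normalized, and TPM values in a second table. The submitters' processing notes name fastp, HISAT2 2.1.0, featureCounts, DESeq 1.18.1 and GRCh38.p13, without roles; the strand of counting is not given in the sources used here. Both tables hold 63677 rows with an Ensembl identifier and repeat a symbol's values on each of its rows. Duplicates were therefore dropped, leaving 56638 genes and a TPM sum of 1000000 per library.

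Counts were scaled with the TMM method of edgeR 4.0.16 (R 4.3.3), with factors computed over all 56638 genes. The genes tested are those with at least 10 counts summed. Log2FC used a prior of 0.5 counts. Exact Clopper-Pearson intervals of the read split, Poisson intervals of levels and conditional intervals of pair differences (95%, scipy 1.17.1) cover counting error only. The scripts were tested on simulated data. Members, gene lists and tests were chosen with earlier results of these data known. Named genes are the 10 members, MBD2, and per list those past a log2FC of 1 or -1 with at least 100 counts in the higher library and the 3 with the most counts; named outside this rule, with values known, were the paralogs TEAD2, TEAD3 and LATS1, the only genes past the fold in lists where these had fewer counts, cell type markers at few counts or 0, and those marked in the text. The lists were other YAP-TEAD targets, Hippo genes, junction genes, SRF and actin genes, AP-1, proliferation, NF-kB targets and cell type markers. Alternatives were DESeq2 1.42.0 size factors, total counts, upper-quartile factors, log2 of TPM plus 0.1 or 1, prior counts of 2 and 0.1, other count filters, and levels not divided by length.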

Additional observations from a re-analysis of the deposited data

How the results depend on the processing

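Each of the 10 members kept its direction under all 7 alternatives of scaling, unit and prior count, and all 70 values lay within the counting interval of the reported value. CTGF ran from 0.57 to 0.65, CYR61 from -0.79 to -0.76 and ANKRD1 from -1.83 to -1.48. The scalings shift every log2FC alike, by 0.0089 with DESeq2 size factors, -0.017 with total counts, -0.0061 with upper-quartile factors and -0.028 with the deposited TPM. ANKRD1 was the only member past 1 or -1 under every alternative. The number of all genes past either line moved from 1851 to 714 with log2 of TPM plus 1, to 8826 with at least 1 count and to 340 with at least 100 counts summed. Of 99 counts over single lists, 17 changed by more than 1.5 times, all in lists with 4 or fewer genes past a line under either setting. With counts not divided by length, the share of TEAD1 in its family became 87.4% in T-shMBD2 and 88.1% in T-shNC, and YAP1 over WWTR1 became 0.324 and 0.335. No paired analysis was possible because neither condition was repeated. Depth limits ANKRD1 most, then CTGF, by the width of their intervals, and spread between cultures is unknown.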
